A study of Mus musculus with 24 samples.

Results

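The genes described here are 10 stress-responsive genes, 6 immediate early genes (*Fos*, *Fosb*, *Jun*, *Junb*, *Egr1* and *Ier2*) and 4 heat shock genes (*Hspa1a*, *Hspa1b*, *Hsph1* and *Dnajb1*), taken by gene symbol from the 54532 genes counted in each sample. All 10 were found in the GENCODE M21 annotation by their Ensembl identifiers, and all 10 were tested in every tissue. RNA-Seq counts covered 4 tissues of Trex1-/- mice (tongue, muscle, stomach and heart), with 3 control and 3 SN-011 samples per tissue and 24 samples in 8 groups. Every mouse lacked *Trex1*, the gene of a cytosolic DNA exonuclease, so all groups carried the same genotype and no wild-type group was analysed here. SN-011 is a small-molecule antagonist of STING, the adaptor through which cytosolic DNA induces type I interferon. The sample labels give SN-011 at 5 mg/kg on 3 occasions a week for 4 weeks, with untreated controls, whereas the methods text gives 10 mg/kg daily for 2 weeks from 1 month of age, with a vehicle control. The groups are the same under either schedule. The comparisons ask how these genes stood in each tissue and each sample, and whether they differed after SN-011.

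Immediate early genes are switched on within minutes of a stimulus from transcription factors already present in the cell, such as the serum response factor with its ternary complex partners and CREB, and their transcripts decay fast. *Fos*, *Fosb*, *Jun* and *Junb* encode subunits of the AP-1 transcription factor, *Egr1* encodes a zinc finger transcription factor, and *Ier2* encodes a nuclear protein of the same early wave. Heat shock genes answer unfolded protein through the factor HSF1, which binds inverted repeats of the letters GAA. *Hspa1a* and *Hspa1b* encode the stress-inducible Hsp70 chaperone, *Dnajb1* a J-domain co-chaperone that stimulates its ATPase, and *Hsph1* a nucleotide exchange factor that resets it. In excised tissue both groups of genes are known to respond to handling, ischaemia and the time to freezing as well as to signals in the living animal.

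*Hspa1a* (ENSMUSG00000091971, chromosome 17 of GRCm38, 34969190 to 34972156, minus strand) and *Hspa1b* (ENSMUSG00000090877, chromosome 17, 34956436 to 34959238, minus strand) are neighbouring, near-identical genes. Of the 150-base windows of the longest transcript, 45.95% of those of *Hspa1a* and 40.47% of those of *Hspa1b* occur in the other gene. Read pairs that lie wholly within such stretches would not map uniquely. Mapping was not examined here, so the split of counts between the 2 genes is uncertain. *Hsph1* (ENSMUSG00000029657) lies on chromosome 5 from 149614287 to 149636376 on the minus strand, and *Dnajb1* (ENSMUSG00000005483) on chromosome 8 from 83608193 to 83612653 on the plus strand. RefSeq promoter sequences of GRCm38.p6 were found for 8 of the 10 genes. The sequences of the heat shock genes are shown because letters of the kind that HSF1 binds stand in 3 of the 4, with the heat shock element GAANNTTC or TTCNNGAA in capitals and each sequence written 5′ to 3′ along the gene. The 250 bases before the transcript start of *Hspa1a* (chr17:34972157-34972406, minus strand) and of *Hspa1b* (chr17:34959239-34959488, minus strand) differ at 3 positions and hold the same element, whose first base lies 104 bases before the start. For *Hsph1*, the 30 bases around its element (chr5:149636351-149636380, minus strand) are given. This element (chr5:149636362-149636369) stands before the RefSeq start but within an exon that GENCODE M21 annotates for *Hsph1* (149636320 to 149636376), as do 26 of the 30 bases shown, so it is upstream sequence in one annotation and transcribed sequence in the other. The 250 bases of *Dnajb1* (chr8:83607925-83608174, plus strand) hold neither form.
Hspa1a: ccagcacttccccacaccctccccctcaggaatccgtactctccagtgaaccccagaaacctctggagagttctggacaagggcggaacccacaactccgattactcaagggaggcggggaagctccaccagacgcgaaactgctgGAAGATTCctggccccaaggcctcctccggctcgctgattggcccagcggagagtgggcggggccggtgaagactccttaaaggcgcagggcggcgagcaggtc
Hspa1b: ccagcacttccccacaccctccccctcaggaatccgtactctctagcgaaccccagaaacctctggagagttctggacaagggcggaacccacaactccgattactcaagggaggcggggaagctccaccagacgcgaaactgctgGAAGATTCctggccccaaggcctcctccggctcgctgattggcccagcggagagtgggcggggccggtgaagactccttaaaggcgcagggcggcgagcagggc
Hsph1: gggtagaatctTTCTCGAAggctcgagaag
Dnajb1: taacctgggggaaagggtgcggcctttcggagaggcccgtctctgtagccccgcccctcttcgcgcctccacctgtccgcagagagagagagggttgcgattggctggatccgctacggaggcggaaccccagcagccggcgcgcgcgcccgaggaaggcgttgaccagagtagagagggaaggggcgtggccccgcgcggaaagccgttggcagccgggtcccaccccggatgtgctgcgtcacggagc
Both forms read the same on both strands. Only exact matches within the 250 bases were counted, here and for the letters named below. Sites farther upstream or with a changed letter were thus not seen. Of 32851 RefSeq promoter windows of 250 bases, 6.69% hold GAANNTTC, 7.17% hold TTCNNGAA and 12.8% hold either. Of the immediate early genes with a sequence, *Jun* holds GAANNTTC 128 bases before its start, and neither the CArG box, TGACGTCA nor TGANTCA occurs in the windows of *Fos*, *Fosb*, *Jun* or *Junb*, against 1.47%, 1.55% and 6.75% of all windows.

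Among the immediate early genes, *Fos* (ENSMUSG00000021250) lies on chromosome 12 from 85473890 to 85477273 and *Fosb* (ENSMUSG00000003545) on chromosome 7 from 19302696 to 19310051. *Jun* (ENSMUSG00000052684) lies on chromosome 4 from 95049034 to 95052222 and overlaps the antisense gene *Junos* in exons. *Junb* (ENSMUSG00000052837, chromosome 8, 84974484 to 84978718) overlaps *Prdx2* on the other strand, and *Hspa1a* overlaps *Gm20481* likewise. *Egr1* (ENSMUSG00000038418) lies on chromosome 18 from 34859823 to 34864984 and *Ier2* (ENSMUSG00000053560) on chromosome 8 from 84661331 to 84662852.

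Total counts per sample lay between 14253416 and 18443329, at which 3 counts correspond to 0.163 to 0.210 CPM, counts scaled to library size, the lowest level that could be shown, counting error only. Marker sums of cardiomyocytes, skeletal muscle, gastric glands and squamous epithelium were highest in heart, muscle, stomach and tongue, as labelled. Counts of *Xist*, transcribed from the inactive X, were 3060 to 13811 in control replicate 1 of each tissue and at most 20 elsewhere, and those of the Y-linked *Ddx3y* were at most 3 there and at least 825 elsewhere, so sex and treatment are partly confounded. Muscle SN-011 replicate 2 stood apart with 11546 genes detected, where every other library detected 19798 or more. *Trex1* itself had 0 counts in all samples but overlaps *Atrip*, and these counts do not show the genotype. Gastric gland markers summed to 289 to 3060 CPM in control replicates 2 and 3 of the heart, muscle and tongue, and to 6.38 to 49.3 CPM in the other samples of these tissues. The part of these differences in the results below was not tested. Unless stated, values are CPM with library sizes scaled by TMM within the tissue, differences are log2 fold changes of SN-011 against control from edgeR's quasi-likelihood test with a standard error (SE), and adjusted p-values are Benjamini-Hochberg over all genes tested. Nothing in the labels shows that samples of different tissues came from different mice.

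**Figure D1:**
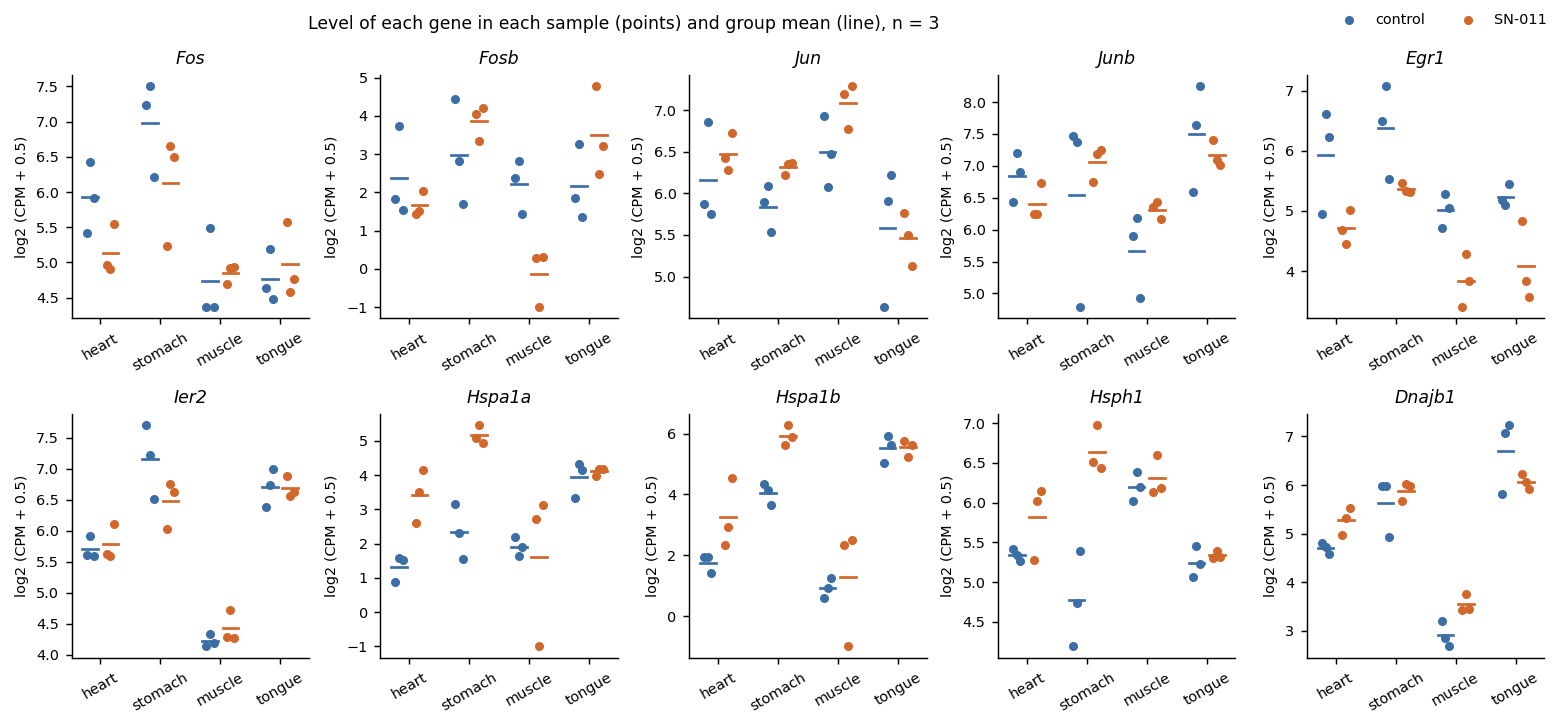
Level of each of the 10 genes, as log2 (CPM + 0.5) with CPM scaled within a tissue, in every sample by tissue (x axis), with control samples in blue, SN-011 samples in orange and lines at the group means (n = 3). SN-011 samples lie above control samples for *Hspa1a* and *Hspa1b* in heart and stomach and for *Hsph1* in stomach, and below them for *Egr1* in stomach, muscle and tongue; the lowest orange points of *Hspa1a*, *Hspa1b* and *Fosb* in muscle are 0 counts in SN-011 replicate 2.

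In the heart, *Hspa1a* rose after SN-011, and it was the only one of the 10 genes that passed the adjusted threshold there. Its level was 1.36, 2.49 and 2.35 CPM in the control hearts and 5.64, 10.8 and 17.3 CPM in the SN-011 hearts. Every SN-011 heart lay above every control heart, and the SN-011 hearts differed among themselves by more than the control hearts did. The log2 fold change was 2.45 (SE 0.42, 95% interval 1.49 to 3.40, adjusted p = 0.0403 by edgeR's quasi-likelihood test), which ranks it 101 of 16151 genes by p, and 137 genes (0.848%) passed this threshold in the heart. The call was lost in 5 of the 6 fits that left out 1 heart, with adjusted p from 0.0700 without control replicate 1 to 0.181 without SN-011 replicate 2, and in a joint fit of all 24 samples (adjusted p = 0.481), while the log2 fold change stayed between 1.98 and 2.77.

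*Hspa1b* was at 3.32, 3.32 and 2.14 CPM in the control hearts and at 4.50, 7.10 and 22.9 CPM in the SN-011 hearts. The groups did not overlap, but SN-011 replicate 3 stood far above the other SN-011 hearts. Its log2 fold change was 1.98 (SE 0.55, adjusted p = 0.101), and 0.98 without that sample. *Dnajb1* was at 27.5, 25.8 and 23.5 CPM in the control hearts and at 31.0, 39.3 and 45.7 CPM in the SN-011 hearts, also without overlap. The log2 fold change of *Dnajb1* was 0.59 (SE 0.16, adjusted p = 0.0931). *Hsph1* was at 42.4, 39.99 and 37.98 CPM in control hearts and 38.4, 64.3 and 70.6 CPM in SN-011 hearts, where replicate 1 lay within the control range (log2 fold change 0.53, SE 0.20, adjusted p = 0.177). In all, 4 of the 4 heat shock genes were higher at an unadjusted p under 0.05, as were 10.8% of all genes tested in the heart, and 3 of 4 did not overlap with all SN-011 samples above, as did 14.1% of all genes. Replicate 3 had the highest and replicate 1 the lowest level of the SN-011 hearts for each of the 4 genes.

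In the stomach, *Hspa1a*, *Hspa1b* and *Hsph1* had log2 fold changes of 1.83 to 2.83, and *Dnajb1* one of 0.19. None of the 4 passed the adjusted threshold, nor did any of the 17031 genes tested (0%), whereas 4183 genes had an unadjusted p under 0.05, 2241 of them (13.2%) higher. *Hspa1a* was at 8.39, 4.43 and 2.46 CPM in the control stomachs and at 33.6, 43.8 and 30.5 CPM in the SN-011 stomachs. The lowest SN-011 value was above 3 times the highest control value. Its log2 fold change of 2.83 (SE 0.45, 95% interval 1.82 to 3.85, adjusted p = 0.0618) ranked 36 of 17031 by p.

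*Hspa1b* was at 19.7, 17.2 and 12.04 CPM in the control stomachs and at 48.4, 77.5 and 59.3 CPM in the SN-011 stomachs. The groups did not overlap, and the log2 fold change was 1.92 (SE 0.29, 95% interval 1.27 to 2.57, adjusted p = 0.0618), rank 24 by p. *Hsph1* was at 17.8, 26.1 and 41.5 CPM in the control stomachs and at 91.0, 126 and 86.2 CPM in the SN-011 stomachs. Here too every SN-011 sample lay above every control sample, and the log2 fold change was 1.83 (SE 0.34, 95% interval 1.04 to 2.61, adjusted p = 0.0657). *Dnajb1* was at 62.4, 62.9 and 30.2 CPM in the control stomachs and at 50.4, 64.2 and 62.3 CPM in the SN-011 stomachs. The groups of *Dnajb1* overlapped, with a log2 fold change of 0.19 (SE 0.31, 95% interval −0.52 to 0.90, adjusted p = 0.737). Thus 3 of the 4 genes did not overlap, all with SN-011 above, against 17.8% of all genes tested in the stomach. *Hspa1a* passed without control replicate 1 (3.36, adjusted p = 0.0402), as did 64 of 17959 genes (0.356%). With DESeq2 and with edgeR's exact test, *Hspa1a*, *Hspa1b* and *Hsph1* were called in the stomach, where these tools called 14.0% and 10.8% of all 17031 genes. The log2 fold changes of the 3 genes stayed between 1.55 and 3.36 over all alternatives.

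Markers of cell types were also compared between the groups of stomach samples. Of all genes tested there, 17.8% had all SN-011 samples above and 15.2% all below. The sum of 6 markers of stratified squamous epithelium, which lines the mouse forestomach, was 112 to 241 CPM in control stomachs and 454 to 1483 CPM in SN-011 stomachs, with 5 of the 6 markers apart and none at 0 throughout. The sum of 4 smooth muscle markers was 1033 to 6075 CPM against 4855 to 9775 CPM, with 1 of 4 apart. The sum of 7 gastric gland markers was 47540 to 153715 CPM against 20834 to 116654 CPM, with 1 of 7 apart, all SN-011 below. A count of 1 marker is near what these shares give for lists of this size. The part of the markers in the heat shock values was not tested. In bulk tissue, fewer cells of a type and less RNA per cell cannot be told apart. In the heart, 3 of the 6 squamous markers (*Krt5*, *Krt6a* and *Sprr3*) were at 0 in all samples and the sum of the 6 was at most 0.967 CPM, whereas haemoglobin transcripts (4 genes) summed to 485 to 1359 CPM in control and 1345 to 2446 CPM in SN-011 hearts, with 1 of 4 apart. The sum of 6 cardiomyocyte markers was 28797 to 40565 CPM in control and 40382 to 48083 CPM in SN-011 hearts, with 3 of 6 apart and higher. That of 4 smooth muscle markers was 2673 to 3357 CPM against 3964 to 4457 CPM, with 1 of 4 apart, and that of 4 endothelial markers 641 to 741 CPM against 545 to 690 CPM, with 2 of 4 apart and lower. Of all genes tested in the heart, 14.1% had all SN-011 samples above and 13.1% all below. The part of the heart markers in the heart values of *Hspa1a* was not tested.

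In the muscle, no heat shock gene passed the adjusted threshold, and 2 of 14198 genes (0.0141%) did. *Hspa1a* was at 4.12, 2.60 and 3.23 CPM in control muscle and at 6.03, 0 and 8.22 CPM in SN-011 muscle. *Hspa1b* was at 1.00, 1.42 and 1.87 CPM in control muscle and at 4.61, 0 and 5.22 CPM in SN-011 muscle. Both had 0 counts in replicate 2, the library with counts on few genes, and lay above the control range in the other SN-011 muscles. With it, the log2 fold changes were 0.52 (SE 1.33, adjusted p = 0.870) and 1.20 (SE 1.37, adjusted p = 0.739), and fitted values with a sample at 0 depend on the prior count. Without it, they were 1.10 (adjusted p = 0.0504) and 1.77 (adjusted p = 0.0298), with 2 SN-011 samples left, and 1103 of 14903 genes (7.4%) passed in that fit.

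*Dnajb1*, at 8.66, 6.73 and 5.90 CPM in control muscle and 10.3, 13.1 and 10.4 CPM in SN-011 muscle, did not overlap. Its log2 fold change was 0.66 (SE 0.26, adjusted p = 0.322), and 0.54 without replicate 2. *Hsph1* lay at 64.7 to 82.9 CPM in control and 69.7 to 96.9 CPM in SN-011 muscle, with overlap (log2 fold change 0.12, SE 0.17, adjusted p = 0.789). So 1 of the 4 genes was higher at an unadjusted p under 0.05, against 8.96% of all genes, and lay with all SN-011 samples above, against 14.7%. Haemoglobin transcripts were also higher, at 189 to 757 CPM in control and 855 to 1139 CPM in SN-011 muscle, with 2 of 4 genes apart. Skeletal muscle markers summed to 119636 to 133950 CPM against 144750 to 175093 CPM (3 of 6 apart, higher), and smooth muscle markers to 3872 to 4071 CPM against 4823 to 5789 CPM (2 of 4, higher). Endothelial markers summed to 188 to 233 CPM against 132 to 164 CPM (2 of 4, lower), and gastric gland markers to 40.6 to 723 CPM against 11.7 to 37.7 CPM (3 of 7, lower). Of all genes tested in the muscle, 14.7% had all SN-011 samples above and 19.8% all below. The part of these markers in the muscle values was not tested.

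In the tongue, the heat shock genes of both groups overlapped without exception, and 0 of 16587 genes (0%) passed the adjusted threshold by edgeR's quasi-likelihood test, with 2074 at an unadjusted p under 0.05. *Hspa1a* was at 9.54, 19.7 and 17.3 CPM in control tongues and at 15.3, 17.5 and 17.7 CPM in SN-011 tongues (log2 fold change 0.12, SE 0.27, 95% interval −0.51 to 0.75, adjusted p = 0.867). *Hspa1b* was at 32.3, 60.4 and 49.2 CPM against 53.5, 37.3 and 49.3 CPM (log2 fold change −0.02, SE 0.25, 95% interval −0.61 to 0.57, adjusted p = 0.981). *Hsph1* lay at 33.0 to 43.2 CPM against 38.9 to 41.6 CPM (log2 fold change 0.08, SE 0.14). Control replicate 1 was the lowest tongue sample for these 3 genes. *Dnajb1* was at 55.9, 133 and 150.5 CPM in control and 74.6, 66.0 and 59.6 CPM in SN-011 tongues, with the same control replicate below all others. Its log2 fold change was −0.76 (SE 0.34, adjusted p = 0.411), and −1.09 (adjusted p = 0.00402) without that sample, a fit in which 2135 of 17142 genes (12.5%) passed. The sample left out differs from the rest in sex, and the 2 control tongues that remain had 3060 and 2478 CPM of gastric gland markers, against 12.7 to 49.3 CPM in the other 4 tongues. The part of either in this value was not tested. DESeq2 and edgeR's exact test called 0 of the 4 genes in the tongue and 0 in the muscle. None of the 4 was higher at an unadjusted p under 0.05 in the tongue, where 5.17% of all genes were, and 9.4% of all genes there had all SN-011 samples above.

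The size of the change was compared between tissues in a joint fit of all 24 samples, by an edgeR quasi-likelihood F test of the 3 tissue-by-treatment terms, which 458 of 19731 genes (2.32%) passed. *Hsph1* passed it (adjusted p = 0.0191). In that fit its log2 fold change was 1.80 for stomach, 0.52 for heart, 0.08 for tongue and 0.01 for muscle. The test fell short without stomach control replicate 2 (adjusted p = 0.0536) and held in the other 23 fits that left out 1 sample. The joint fit takes 1 spread for each gene over all tissues. Within the stomach alone *Hsph1* did not pass (adjusted p = 0.0657, edgeR quasi-likelihood test). *Hspa1a*, with joint log2 fold changes of 2.78 for stomach, 2.44 for heart, 0.52 for muscle and 0.12 for tongue, did not pass (adjusted p = 0.271), nor did *Hspa1b* (adjusted p = 0.479) or *Dnajb1* (adjusted p = 0.159). For these 3 genes, a difference between tissues was not shown at this number of samples.

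**Figure D2:**
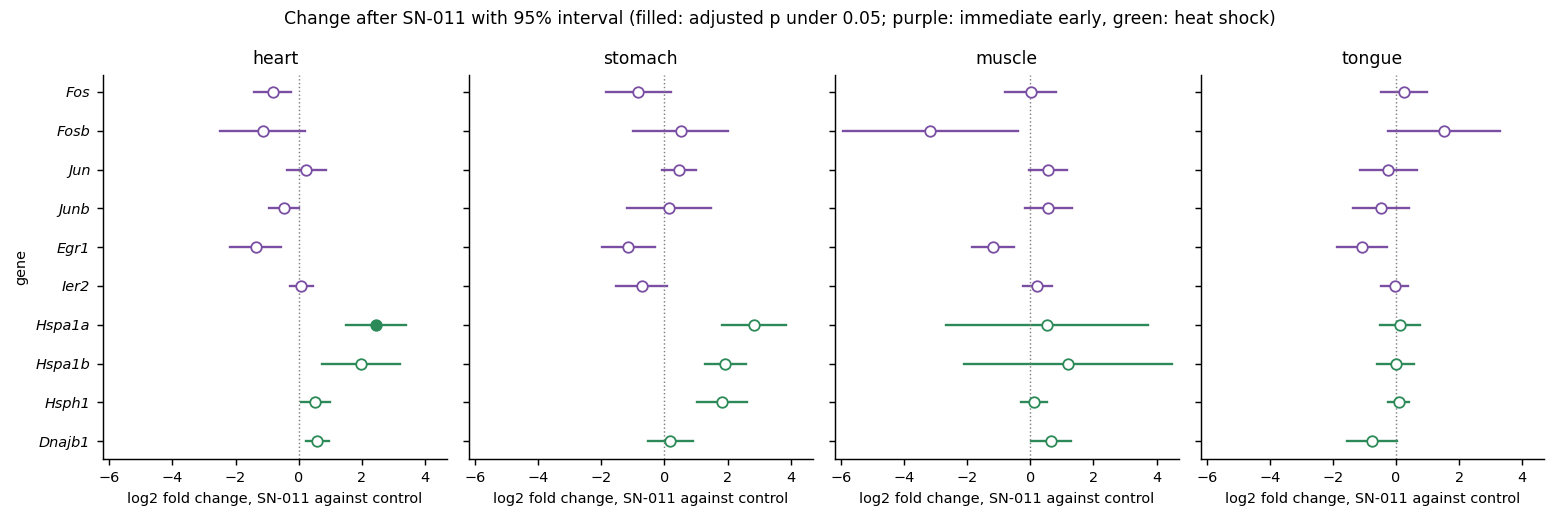
Log2 fold change of each gene after SN-011 (x axis) by tissue, from edgeR fits within a tissue with 3 samples per group, with 95% intervals as lines, immediate early genes in purple, heat shock genes in green and filled points where the adjusted p is under 0.05. *Hspa1a* in the heart, at 2.45, is the one filled point; *Egr1* lies between −1.36 and −1.08 in the 4 tissues, and the widest heat shock intervals, in muscle, come with the 0 counts of SN-011 replicate 2.

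Among the immediate early genes, *Egr1* had a lower mean level after SN-011 in each of the 4 tissues, but passed the adjusted threshold in none. In the heart it was at 30.4, 97.0 and 74.6 CPM in control and at 25.2, 21.4 and 31.7 CPM in SN-011 samples. Control replicate 1 fell within the SN-011 range there, so that the groups overlapped. In the stomach it was at 90.1, 135 and 45.8 CPM in control and at 43.8, 39.6 and 39.3 CPM in SN-011 samples. In the muscle it was at 25.8, 38.6 and 32.5 CPM against 10.1, 19.01 and 13.8 CPM. In the tongue it was at 35.7, 33.6 and 43.0 CPM against 28.1, 13.7 and 11.3 CPM. In stomach, muscle and tongue the highest SN-011 value was under the lowest control value, as was true of 8.38% of all tongue genes, 15.2% of stomach genes and 19.8% of muscle genes.

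The log2 fold changes of *Egr1* were −1.36 in heart (SE 0.36, adjusted p = 0.0918), −1.18 in muscle (SE 0.28, adjusted p = 0.175), −1.14 in stomach (SE 0.37, adjusted p = 0.121) and −1.08 in tongue (SE 0.34, adjusted p = 0.326). Each had an unadjusted p under 0.05, at 0.00409, 0.00462, 0.0134 and 0.0143 from the edgeR quasi-likelihood test. It had the smallest p of the 6 immediate early genes in every tissue, while other genes of this class had smaller ones, such as *Npas4* in the stomach, *Maff* in the muscle and *Sik1* in the tongue. A difference between the tissues was not detected in the joint fit (adjusted p = 0.990 by edgeR's quasi-likelihood F test), with log2 fold changes from −1.37 to −1.07. The direction held in all 12 alternatives in each tissue. It passed the adjusted threshold without control replicate 1 in the heart (−1.73, adjusted p = 0.0171, where 1.1% of all genes passed) and without SN-011 replicate 2 in the muscle (−1.43, adjusted p = 0.0266, where 7.4% passed), and in no such fit in the stomach or tongue. The control hearts left in that fit, replicates 2 and 3, had 2888 and 289 CPM of gastric gland markers, against at most 47.0 CPM in the other hearts. Control replicate 1 also differs from the other hearts in sex. The part of either in the heart value was not tested.

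*Fos* was at 42.4, 85.7 and 60.01 CPM in control hearts and at 30.8, 29.4 and 46.3 CPM in SN-011 hearts. The groups overlapped through a single pair of samples, and the log2 fold change was −0.82 (SE 0.26, adjusted p = 0.127). In the stomach *Fos* was at 150 to 182 CPM in control replicates 1 and 2 and at 73.6 CPM in replicate 3, against 37.0, 101 and 89.9 CPM after SN-011 (log2 fold change −0.83, SE 0.45, adjusted p = 0.286). In the muscle and tongue its log2 fold changes were 0.02 (SE 0.34) and 0.25 (SE 0.31), with overlap.

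*Fosb*, the least abundant of the 6, was at 4.697, 6.51 and 2.22 CPM in control muscle and at 0.714, 0 and 0.737 CPM in SN-011 muscle. The SN-011 muscles all lay below the control muscles, and 1 of them was the library with counts on few genes. The log2 fold change was −3.17 (SE 1.16, adjusted p = 0.294) with it, and −2.61 (adjusted p = 0.0424) without it, where 7.4% of all genes passed. In the tongue the gene stood the other way, at 3.12, 9.19 and 2.06 CPM in control and 27.2, 5.11 and 8.72 CPM in SN-011 samples, with overlap. That log2 fold change was 1.51 (SE 0.75, adjusted p = 0.443), and 0.53 without SN-011 replicate 1. In the heart, control replicate 2 at 12.9 CPM stood above the other hearts at 2.22 to 3.60 CPM (log2 fold change −1.15, SE 0.60, adjusted p = 0.296). In the stomach the log2 fold change was 0.51 (SE 0.66, adjusted p = 0.661). The difference between tissues had an unadjusted p of 0.00924 and an adjusted p of 0.128 (edgeR quasi-likelihood F test).

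*Jun*, *Junb* and *Ier2* did not pass the threshold in any tissue. *Jun* was at 59.1, 67.6 and 45.9 CPM in control and at 74.2, 80.9 and 82.1 CPM in SN-011 stomachs, which did not overlap (log2 fold change 0.46, SE 0.23, adjusted p = 0.255). Its log2 fold change was 0.57 in the muscle (SE 0.25, adjusted p = 0.360), 0.24 in the heart (0.68, adjusted p = 0.0461, without control replicate 2, where 4.74% of all genes passed) and −0.25 in the tongue, with overlap in each. *Junb* was at 95.4, 199 and 306 CPM in control tongues and at 169, 136 and 129 CPM in SN-011 tongues. Control replicate 1 was again the lowest of the 6 tongues, and the log2 fold change was −0.47 (SE 0.38, adjusted p = 0.607) with it and −0.80 (adjusted p = 0.0391) without it, where 12.5% of all genes passed. The control tongues left in that fit had 3060 and 2478 CPM of gastric gland markers, whose part in this value was not tested. In the stomach *Junb* was at 177 and 166 CPM in control replicates 1 and 2 but 27.1 CPM in replicate 3, against 107 to 152 CPM after SN-011 (log2 fold change 0.13, SE 0.58). *Ier2* had log2 fold changes of 0.22 in muscle, 0.09 in heart and −0.04 in tongue, and of −0.73 in stomach (SE 0.36, adjusted p = 0.246), where control replicate 1 had 208 CPM and the SN-011 samples 65.0 to 107.6 CPM.

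Counted together, 0 of the 6 immediate early genes passed the adjusted threshold in any tissue by edgeR's quasi-likelihood test. At an unadjusted p under 0.05, 2 were lower in heart (11.6% of all genes were), 2 in muscle (5.8%), 1 in stomach (11.4%) and 1 in tongue (7.33%), and 0 were higher in any tissue. DESeq2 called *Fos* in the heart and *Egr1* in the stomach and muscle, and edgeR's exact test called *Egr1* in the heart, stomach and muscle, all lower. Of all genes, DESeq2 called 8.43% (heart), 14.0% (stomach) and 6.2% (muscle), and the exact test 5.68%, 10.8% and 3.37%. The median log2 fold change of the 6 genes was −0.64 in heart, −0.30 in stomach, −0.14 in tongue and 0.12 in muscle, and that of the 4 heat shock genes was 1.29, 1.87, 0.03 and 0.59. Over all genes tested the medians were −0.01, 0.00, −0.01 and −0.08.

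No gene of the wider families passed the adjusted threshold. Of 31 other immediate early genes, 30 were tested in heart and stomach and 29 in muscle and tongue, with 0 calls in any of the 4 tissues by edgeR's quasi-likelihood test. At an unadjusted p under 0.05, 7 were higher and 2 lower in heart, 4 and 3 in stomach, 7 and 0 in muscle, and 5 and 2 in tongue. Of all genes tested, 10.8% were higher and 11.6% lower in heart, 13.2% and 11.4% in stomach, 8.96% and 5.8% in muscle, and 5.17% and 7.33% in tongue, so the stomach counts were near these shares. DESeq2 called 7 of them in heart (8.43% of all genes), 3 in stomach (14.0%), 5 in muscle (6.2%) and 2 in tongue (2.52%), and the exact test called 5 (5.68%), 3 (10.8%), 5 (3.37%) and 1 (1.53%). The largest and smallest log2 fold changes were those of *Fosl2*, an AP-1 subunit, and *Egr3*, a relative of *Egr1*, in the heart (1.12 and −1.40, adjusted p = 0.0845 and 0.1299). In the stomach they were those of *Npas4*, a neuronal activity gene, and *Klf6*, a zinc finger factor (2.43 and −1.002, adjusted p = 0.0648 and 0.160). In the muscle they were those of *Maff*, a small Maf protein, at 10.2 ± 8.62 CPM in control and 68.0 ± 4.71 CPM in treated muscle (SD, n = 3; 2.73, adjusted p = 0.141), and *Egr3* (−1.88, adjusted p = 0.549). In the tongue they were those of *Sik1*, a salt-inducible kinase, at 66.6 ± 11.7 and 122 ± 7.87 CPM (SD, n = 3; 0.88, adjusted p = 0.263), and *Egr3* (−1.85, adjusted p = 0.297). *Egr3* thus had the lowest log2 fold change of the list in the heart, muscle and tongue, though not past the threshold in any. In the muscle its level was low, at a mean of 1.21 CPM in control and 0.316 CPM in SN-011 samples. The groups overlapped there, and the SE was 1.25.

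Of 24 other heat shock genes, all were tested in each tissue and 0 passed the adjusted threshold in any by edgeR's quasi-likelihood test. At an unadjusted p under 0.05, 8 were higher and 0 lower in heart and likewise in muscle, 2 and 1 in stomach, and 1 and 1 in tongue. At this p, 10.8% of all genes were higher and 11.6% lower in heart, and 8.96% and 5.8% in muscle. These shares were 13.2% and 11.4% in stomach and 5.17% and 7.33% in tongue. The stomach and tongue counts were near or under their shares. DESeq2 called 7, 6, 3 and 0 of them in the heart, muscle, stomach and tongue (8.43%, 6.2%, 14.0% and 2.52% of all genes), and the exact test 4, 2, 3 and 0 (5.68%, 3.37%, 10.8% and 1.53%). Their median log2 fold change was 0.23 in the heart and in the muscle, 0.00 in the stomach and 0.05 in the tongue. *Hspb1*, a small heat shock protein, was at 378 ± 53.6 CPM in control and 651 ± 116 CPM in SN-011 hearts (SD, n = 3; log2 fold change 0.78, adjusted p = 0.0688), and *Hspa2* had the lowest value there (−0.08). In the stomach *Hspb8*, another small heat shock protein, had the highest value at 39.0 ± 26.1 against 146 ± 44.3 CPM (SD, n = 3; 1.91, adjusted p = 0.0796), and *Hspe1*, a mitochondrial co-chaperonin, the lowest (−1.01, adjusted p = 0.0874). In the muscle *Hspb8* was lowest (−0.31). In the tongue *Hspa1l* was highest (1.10, adjusted p = 0.399) and *Hspa2* lowest (−0.94, adjusted p = 0.369).

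Of 10 upstream regulators, which include *Hsf1* and *Srf*, 0 passed the adjusted threshold by edgeR's quasi-likelihood test in any tissue. At an unadjusted p under 0.05, 0 were higher and 1 lower in heart, 2 and 1 in stomach, 1 and 2 in muscle, and 0 and 1 in tongue. Of all genes, 10.8% were higher and 11.6% lower in heart, and 13.2% and 11.4% in stomach. These shares were 8.96% and 5.8% in muscle and 5.17% and 7.33% in tongue. The heart, stomach and tongue counts were near these shares. DESeq2 called 2 of the regulators in the stomach (14.0% of all genes) and 3 in the muscle (*Elk4*, *Mrtfa* and *Mrtfb*, against 6.2%). The exact test called 1 in the muscle (*Elk4*, against 3.37%). Log2 fold changes ran from −0.26 (*Elk4*) to 0.25 (*Srf*) in heart, −1.10 (*Mrtfa*) to 1.07 (*Elk4*) in muscle and −0.51 (*Mapk3*) to 0.23 (*Hsf1*) in tongue, and the highest in stomach was 0.92 (*Elk1*).

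**Figure D3:**
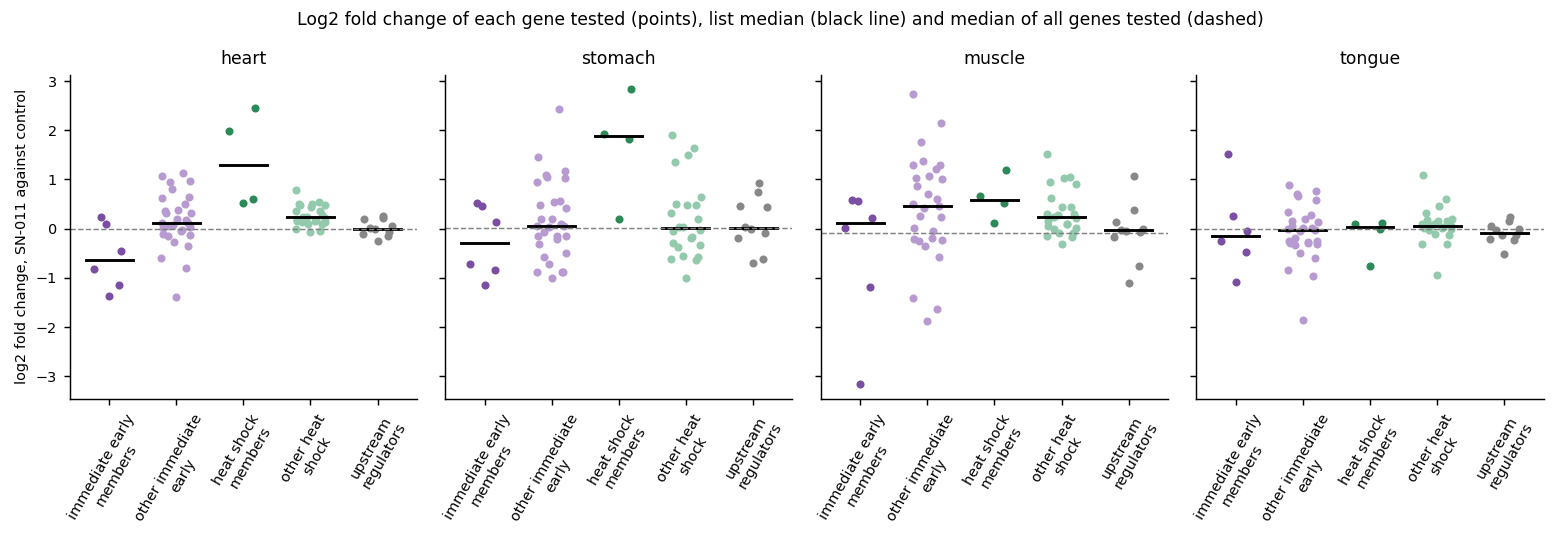
Log2 fold change after SN-011 (y axis) of every gene tested in 5 lists (x axis) in each tissue, with black lines at list medians and a dashed line at the median of all genes tested. The 4 heat shock genes have medians of 1.87 (stomach) and 1.29 (heart), and the other heat shock genes 0.00 and 0.23.

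In control mice the levels of these genes also differed between tissues, about as often as those of all genes (shares below). For this comparison CPM were scaled over all 24 samples, and control groups were compared by pairwise contrasts in the joint edgeR fit. *Dnajb1* had 96.0 ± 43.2 CPM in the tongue, 43.5 ± 16.6 in the stomach, 22.99 ± 1.87 in the heart and 11.7 ± 2.08 in the muscle (SD, n = 3), and each tissue differed from the next in this order (adjusted p = 0.00503, 0.0177 and 0.0177), though the steps to heart and to muscle were lost in several fits without 1 sample. *Hsph1* had 121 ± 16.4 CPM in the muscle and 36.0 ± 2.12 in the heart (SD, n = 3), a log2 fold change of 1.75 (SE 0.25, adjusted p = 1.48e-05), and the steps from heart to tongue (31.9 ± 4.76) and on to stomach (23.5 ± 9.24) did not pass the threshold. The order of tissues thus differed between these partner chaperones, since muscle was highest for *Hsph1* and lowest for *Dnajb1*. *Hspa1b* had 40.1 ± 12.4 CPM in the tongue, 13.7 ± 3.64 in the stomach, 2.62 ± 0.608 in the heart and 2.37 ± 0.759 in the muscle, and the step from stomach to heart passed the threshold (adjusted p = 0.0108). *Hspa1a* had 13.1 ± 4.61 CPM in the tongue, 5.46 ± 1.17 in the muscle, 4.30 ± 2.66 in the stomach and 1.85 ± 0.541 in the heart, and no neighbouring step passed, although tongue and heart differed (log2 fold change −2.83 for heart against tongue, SE 0.80, adjusted p = 0.0107).

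*Ier2* had 125.5 ± 52.6 CPM in the stomach, 89.3 ± 19.3 in the tongue, 46.5 ± 6.02 in the heart and 29.95 ± 2.55 in the muscle (SD, n = 3), with a difference between tongue and heart (adjusted p = 0.00883). *Jun* was highest in the muscle (152 ± 43.0 CPM) and then the heart (67.6 ± 30.3), which differed (adjusted p = 0.0131, and 0.0756 without heart control replicate 3), followed by the stomach (48.1 ± 10.02) and tongue (44.7 ± 21.9). *Fos* ran from 113 ± 48.3 CPM in the stomach through 56.1 ± 19.1 in the heart and 46.6 ± 23.3 in the muscle to 23.2 ± 6.60 in the tongue, and *Egr1* from 75.9 ± 38.2 in the stomach through 60.2 ± 29.99 and 53.3 ± 11.2 to 31.6 ± 4.13 in the same tissues. No neighbouring step passed for either gene, but stomach and tongue differed for both (adjusted p = 2.82e-04 and 0.0159). *Fosb* (4.07 to 8.68 CPM) and *Junb* (88.3 to 169 CPM) passed the threshold in none of the 6 pairs of tissues. In all, 7 of 30 neighbouring steps and 26 of 60 pairwise comparisons passed the threshold. The share of all genes that passed was 42.5% for heart and stomach, 33.7% for heart and muscle and 29.1% for heart and tongue. It was 51.6% for stomach and muscle, 36.9% for stomach and tongue and 38.1% for muscle and tongue. These shares belong beside the pairwise count only, since neighbouring steps follow each gene's own order of means. Without stomach control replicate 3, 12 of the neighbouring steps passed. Per kilobase of exon, the highest control level was that of *Ier2* in the stomach (82.5 CPM per kb) and the lowest were those of *Hspa1a* in the heart (0.624) and *Fosb* in the tongue (0.652).

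**Figure D4:**
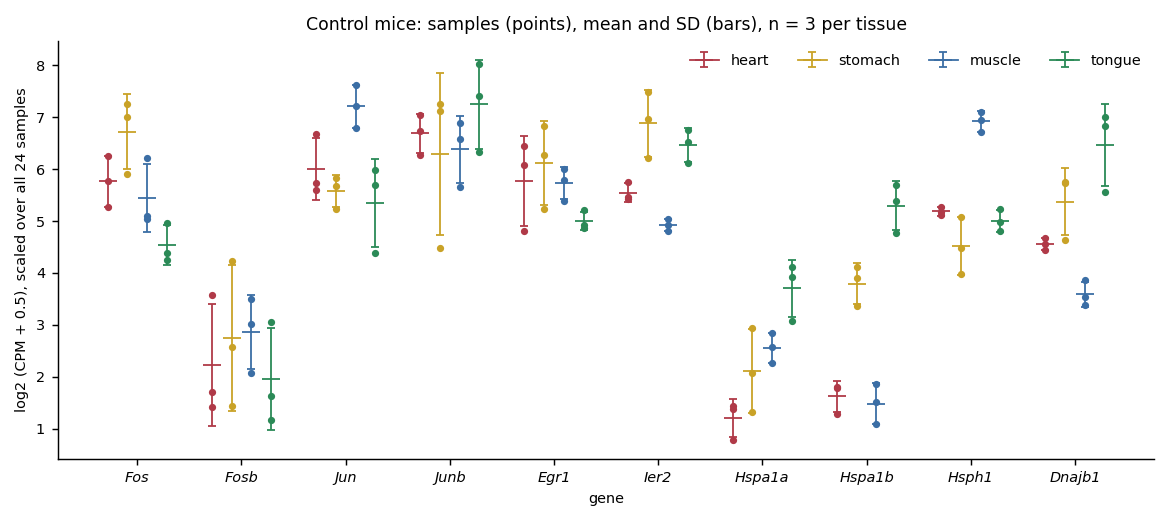
Control mice only, level of each gene as log2 (CPM + 0.5) with CPM scaled over all 24 samples (y axis) by gene (x axis) and tissue (colour), with points for samples and bars for mean ± SD (n = 3). *Dnajb1* steps down from tongue to stomach, heart and muscle, and *Hsph1* is highest in muscle at 121 CPM.

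Samples of 1 group differed widely for several of these genes. The pooled within-group SD of log2 (CPM + 0.5) was 0.94 for *Fosb*, 0.93 for *Hspa1a*, 0.86 for *Hspa1b* and 0.69 for *Junb*, larger than that of 99.7%, 99.7%, 99.5% and 98.3% of 9624 genes, whose median was 0.30. The genes compared were limited to those that reached 10 counts in each library. *Fosb*, *Hspa1a* and *Hspa1b* fell short of this limit, with 0 counts in muscle SN-011 replicate 2. Other genes with such a 0 were left out of the comparison. The shares of these 3 genes thus cannot show whether their spread was unusual, whereas *Junb* lay above the limit in all samples. In SN-011 muscle replicates 1, 2 and 3 the log2 values were 2.71, −1 and 3.12 for *Hspa1a* and 2.35, −1 and 2.52 for *Hspa1b*. For *Fosb* they were 0.28, −1 and 0.31. Replicate 2 thus widens these SDs, most of all those of *Hspa1a* and *Hspa1b*, and SDs without it were not computed. *Fos* and *Egr1* exceeded 92.1% and 91.3% of genes, *Jun* 82.0% and *Dnajb1* 73.0%, whereas *Ier2* (0.32) and *Hsph1* (0.32) were near the middle. Taken as the mean deviation of the 6 immediate early genes from their group mean, the samples farthest off were stomach control replicate 3 (−0.93), heart control replicate 2 (0.64), tongue SN-011 replicate 1 (0.56) and stomach control replicate 1 (0.56). For the 4 heat shock genes they were muscle SN-011 replicate 2 (−1.10), heart SN-011 replicate 3 (0.65), heart SN-011 replicate 1 (−0.64) and muscle SN-011 replicate 3 (0.63). The mean log2 values of the 4 genes in SN-011 muscle replicates 1, 2 and 3 were 3.66, 2.09 and 3.82. Replicate 3 was thus close to replicate 1, and its deviation rests on replicate 2, which lowers the group mean.

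Deviations of the immediate early genes went together, and in part with those of the heat shock genes. Over the 24 samples, Pearson's r of deviations from the group mean was positive for all 15 pairs of immediate early genes, from 0.26 to 0.81 with a median of 0.54, and from 0.27 to 0.83 with a median of 0.55 over the 23 samples without muscle SN-011 replicate 2. For the 6 pairs of heat shock genes it ran from −0.25 to 0.90 with a median of 0.07, and from −0.08 to 0.70 with a median of 0.44 over the 23 samples. Of the 24 pairs of an immediate early with a heat shock gene, 17 were positive (−0.37 to 0.83, median 0.22). Over the 23 samples 18 were positive (−0.38 to 0.83, median 0.38). No background of r over pairs of other genes is given here. *Dnajb1* had r = 0.83 with *Junb* (Spearman's rho = 0.78, and r = 0.72 without the 2 samples farthest from the median of *Junb*), and the same values were 0.75, 0.72 and 0.66 with *Ier2*, 0.69, 0.64 and 0.62 with *Jun* and 0.21, 0.38 and 0.58 with *Hspa1a*. Over the 23 samples without muscle SN-011 replicate 2, r was 0.83 with *Junb*, 0.75 with *Jun*, 0.74 with *Ier2* and 0.70 with *Hspa1a*, so the low value for *Hspa1a* rests on that library. *Hspa1a* and *Hspa1b* had r = 0.90 (rho = 0.72, and 0.74 without the 2 farthest), and 0.67 over the 23 samples. *Hsph1* had r of −0.37 with *Fosb*, −0.25 with *Hspa1a* and −0.03 with *Dnajb1* over 24 samples, and of −0.32, −0.02 and −0.08 over the 23. These are descriptions, since the points of a tissue share its scaling, samples of different tissues may share mice, and 45 pairs were looked at.

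**Figure D5:**
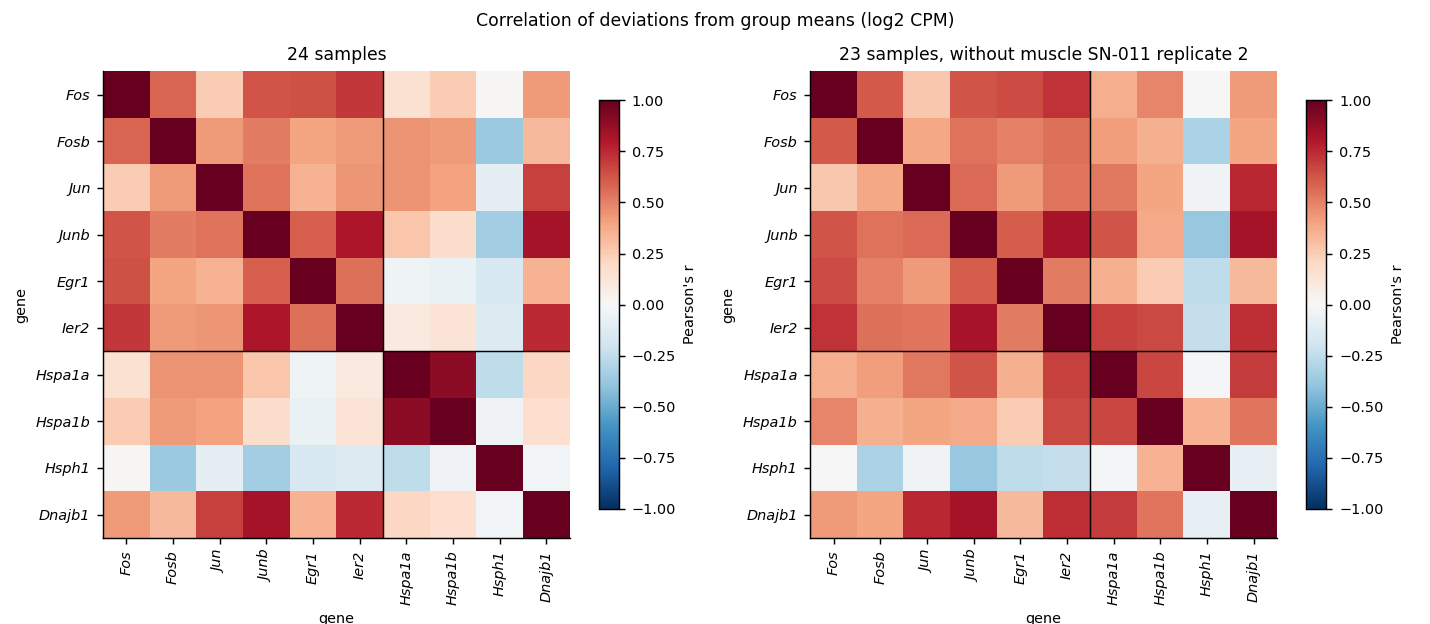
Pearson's r between genes (colour scale, −1 to 1) of the deviations of log2 (CPM + 0.5) from the group mean over 24 samples (left) and 23 samples (right), with black lines between the 6 immediate early and 4 heat shock genes. *Dnajb1* is darkest with *Junb* (0.83) and *Ier2* (0.75), and the correlation of *Hspa1a* with *Hspa1b* is 0.90 on the left and 0.67 on the right.

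Among 9617 other genes that reached 10 counts in each library, those whose deviations were most like the mean of the 6 immediate early genes over 24 samples were *Ubald1* (r = 0.86), *Tusc2* (0.84), *Clip1* (0.82), *Nsmce3* (0.81) and *Klf16* (0.81), and their r was 0.82 to 0.86 over 23 samples. For the mean of the 4 heat shock genes they were *Tbc1d10a* (r = 0.85), *Bak1* (0.85), *Tbck* (0.85), *Arpc4* (0.85) and *Ankrd13a* (0.84). That list rests on muscle SN-011 replicate 2, since without it r of *Tbc1d10a* was 0.67 and *Desi1*, *Pomp*, *Prrg2*, *Serpinb1a* and *Chmp5* stood highest.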

How the data were processed

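RNA was measured in 24 samples of Trex1-/- mice, 4 tissues with 3 control and 3 SN-011 samples each. The authors deposited counts, a whole number of read pairs for each gene in a sample, with no scaling. The submitters' processing notes name HISAT2, HTSeq and mm10, whereas the methods text gives Trimmomatic, hisat2 and featureCounts with uniquely mapped pairs, so which counter made the files is uncertain. Versions are not given in the sources used here. Libraries were polyA-selected, and uniquely mapped pairs leave out reads that near-identical genes share.

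Total counts were 14253416 to 18443329. Symbols and positions came from GENCODE M21 (GRCm38), and promoters from RefSeq (GRCm38.p6). A separate fit was made for every tissue with edgeR 4.0.16 under R 4.3.3, keeping genes by filterByExpr (at least 10 counts, total of 15), with TMM factors, a prior count of 0.125, the quasi-likelihood test and Benjamini-Hochberg adjustment over all genes tested, threshold 0.05. Tissue-by-treatment terms and control tissues were tested in a joint fit of 24 samples. Genes named beyond the 10 members passed the threshold in a tissue (up to 5 per list) or, where none did, had the largest and smallest log2 fold change of their list; likeness named the 5 highest correlations. Of the genes this rule names, 2 are not reported here. *Desi1*, *Pomp*, *Prrg2*, *Serpinb1a*, *Chmp5* and genes named as called by DESeq2 or the exact test were named after their values were seen. The members and gene lists were chosen with earlier results of these data known. Alternatives were DESeq2's size factors, DESeq2 1.42.0, edgeR's exact test, no filter, a joint fit, the replicate number as a block and each sample left out in turn. Leaving muscle SN-011 replicate 2 out of the correlations was chosen after seeing the data. The fits were tested on simulated data. The p-values measure only the spread between these samples, which may be technical in part, since the labels do not say that replicates are separate mice. The exact permutation test of 3 samples against 3 cannot go below p = 0.1, so p-values are from edgeR. Python 3.11.15 with pandas 2.3.3 and matplotlib 3.10.9 was used for tables and figures.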

Additional observations from a re-analysis of the deposited data

Results flagged for a closer look

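*Hsph1*, the nucleotide exchange factor, is listed here because its change after SN-011 differed between tissues by a test of the difference itself (edgeR quasi-likelihood F test of the 3 tissue-by-treatment terms, adjusted p = 0.0191 over 19731 genes). Its joint log2 fold change was 1.80 for stomach, 0.52 for heart, 0.08 for tongue and 0.01 for muscle. With DESeq2's size factors the adjusted p was 0.0226, and without stomach control replicate 2 it was 0.0536. The joint fit takes 1 spread for each gene over all tissues. It called 2738 genes in the stomach and 1 in the heart, against 0 and 137 in the fits within a tissue. Within the stomach alone *Hsph1* did not pass (adjusted p = 0.0657, edgeR quasi-likelihood test). The sum of squamous markers was higher without overlap in the SN-011 stomachs, and that of smooth muscle markers overlapped between the stomach groups. The part of these markers in the *Hsph1* value was not tested.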

How the results depend on the processing

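Of the 10 genes, 1 passed in the heart and 0 in the other tissues, and the numbers passing moved with the method. Without a filter on low counts they were 8 for heart and 4 for stomach, and 2 genes differed between tissues in place of 1 (*Fosb* added), while 1888 of 30288 genes passed in heart and 1368 of 27444 in stomach. DESeq2 and edgeR's exact test each gave 4 in the heart, 4 in the stomach and 1 in the muscle. The joint fit gave 0 for heart, where 1 of 19731 genes passed, and 4 for stomach, where 2738 did. The number of all genes that passed, 137 in heart and 0 in stomach by the main method, moved the same way as the members' in both settings. With 1 sample left out, the numbers ranged from 0 to 2 in the heart (2 without control replicate 2, *Jun* being added), from 0 to 1 in the stomach (1 without control replicate 1), from 0 to 3 in the muscle (3 without SN-011 replicate 2) and from 0 to 2 in the tongue (2 without control replicate 1). Genes that differed between tissues ranged from 0 (without stomach control replicate 2) to 2 (without tongue control replicate 1, or muscle SN-011 replicate 2), and neighbouring steps of control tissues from 5 (without heart control replicate 1 or 3) to 12 (without stomach control replicate 3), against 7. The cause was not tested. Where a group kept 2 samples, its spread was pooled with the other group.

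Replicate numbers recur in every group. Of 12 same-numbered pairs of control and SN-011 samples of a tissue, 2 had deviations that correlated above 0.1 (−0.37 to 0.32). These few correlations, within small groups, cannot decide whether the numbers pair control with SN-011 samples, and the labels do not say. Between tissues, same-numbered controls correlated above 0.1 in 14 of 18 pairs (−0.12 to 0.32, mean 0.17) and SN-011 samples in 6 of 18 (−0.09 to 0.22), a hint from the data and not from the labels that numbers may tie controls across tissues. With number and treatment as a replicate block in the joint fit, *Hsph1* again differed between tissues (adjusted p = 0.0248), and 9 neighbouring steps of control tissues passed in place of 7, those of *Fos* from stomach to heart and from muscle to tongue being added. Within a tissue, with the replicate number as a block, 2 of the 10 genes passed in the stomach (*Hspa1a* and *Hspa1b*, adjusted p = 0.0393 each, among 181 of 17031 genes), 1 in the heart and 0 in the muscle and tongue. The log2 fold change of *Hspa1a* in the muscle was then −0.47 (0.52 without the block) and that of *Hspa1b* in the tongue 0.012 (−0.02 without it), neither past the threshold.

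The other changes of sign concerned log2 fold changes that did not pass the threshold. *Fos* in the muscle went from 0.02 to −0.028 with DESeq2's size factors, −0.029 with DESeq2 and −0.077 in the joint fit, and *Junb* of control heart against stomach from 0.01 to −0.030 with DESeq2's size factors. With 1 sample left out, the ranges that crossed 0 were −1.53 to 0.0028 for *Fosb* and −0.11 to 0.21 for *Ier2* in the heart, −0.36 to 0.45 for *Junb* and −0.10 to 0.35 for *Dnajb1* in the stomach, and −0.19 to 0.49 for *Fos*, −0.12 to 1.10 for *Hspa1a* and −0.046 to 0.20 for *Hsph1* in the muscle. In the tongue they were −0.13 to 0.49 for *Fos*, −0.59 to 0.071 for *Jun*, −0.18 to 0.11 for *Ier2*, −0.13 to 0.32 for *Hspa1a*, −0.23 to 0.19 for *Hspa1b* and −0.0019 to 0.19 for *Hsph1*. Between control tissues they were −0.012 to 0.75 (*Fos*), −0.17 to 0.52 (*Egr1*) and −0.075 to 0.39 (*Hspa1b*) for heart against muscle, −0.081 to 0.68 for *Egr1* of stomach against heart, −0.73 to 1.31 for *Fosb* of heart against tongue, −0.94 to 0.69 (*Fosb*) and −0.13 to 0.72 (*Junb*) for stomach against muscle, −0.25 to 0.43 for *Jun* of stomach against tongue and −0.47 to 0.37 for *Junb* of heart against stomach. Of the 477 alternative values of a gene after SN-011, 406 kept both direction and side of the threshold. At this depth, levels under 0.163 to 0.210 CPM could not be shown. Muscle SN-011 replicate 2 had 0 counts of *Fosb*, *Hspa1a* and *Hspa1b* at a total of 14253416, with 11546 genes detected. Replicates 1 and 3 had 93 and 145 counts of *Hspa1a*, 71 and 92 of *Hspa1b*, and 11 and 13 of *Fosb*. Depth alone thus does not account for the 0 counts of *Hspa1a* and *Hspa1b*, and how that library came to lack them was not tested.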
